A study of Mus musculus with 16 samples.

Results

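Aortic valves of ApoE knockout mice, the hypercholesterolaemia model (HC), were compared with valves of control mice (CON), to describe how valve RNA differs across pathways when the knockout is the labelled genotype change. The libraries were chosen by their group label: 4 HC and 4 CON, which are 8 of the 16 samples in the series. All groups are on the C57BL/6J strain background. The HC group held 3 females and 1 male and the CON group 1 female and 3 males. The other two groups serve below as a second look at the same genotype difference. They are mice with transgenes for human renin and human angiotensinogen, the hypertension model (HT, 4 libraries, 2 of each sex), and mice with both changes (HC/HT, 3 libraries used, 2 females and 1 male). The age and diet of the mice, the form of the knockout allele, the promoters of the transgenes, and whether a library is 1 valve or a pool could not be read from the sources used here, so p-values measure the spread between these samples. The library numbers run from 1 to 7 in HC and HC/HT and from 9 to 17 in CON and HT; what they mark is not given, and their order and the genotype cannot be told apart.

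Apolipoprotein E is the ligand through which lipoprotein remnants are cleared from the blood by the liver, and mice without it accumulate cholesterol-rich remnants in plasma. Macrophages that take up such particles break down their cholesteryl esters in lysosomes, store the surplus as droplets, and become foam cells. They export cholesterol through the transporters ABCA1 and ABCG1, whose genes are switched on by LXR, a nuclear receptor for oxysterols. A valve cusp consists mostly of interstitial cells in matrix, covered by endothelium, with macrophages among them.

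The tissue label was set against marker genes. Markers of valve interstitial cells and endothelium were abundant in both groups. Decorin (Dcn), a small matrix proteoglycan, stood at 7776 ± 1415 units in the CON libraries and 7868 ± 2171 in HC. Tbx20, a transcription factor of the valve cushion, stood at 1859.6 ± 475 and 1436 ± 248 units, and Ptprb, a phosphatase of endothelium, at 1519 ± 185 and 1477 ± 381 (mean ± SD, n = 4 each). Of the 20 interstitial cell markers and 20 endothelial markers tested, none passed in HC against CON, and 0 were at 0 in all 8 libraries. A unit is 1 part in 1000000 of a library's total once 4 rows have been set aside: RN45S, a ribosomal RNA precursor, and AK018753, GU332589 and AK140265. These 4 rows took 41.6% ± 11.2 of the deposited total in CON and 41.4% ± 8.86 in HC (SD, n = 4 each), with the highest shares in CON replicate 4 (57.8%) and HC replicate 4 (54.1%). The spacing of the low values put the 8 libraries at 4.53e+06 to 5.88e+06 counted reads, of which 2.09e+06 to 3.81e+06 lay outside the 4 rows. By this estimate a single read was worth 0.262 to 0.478 units, so values of a few units rest on few reads. Between 90.1% and 100% of the low values in a library followed the spacing, so all read numbers given here are estimates.

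**Figure D1:**
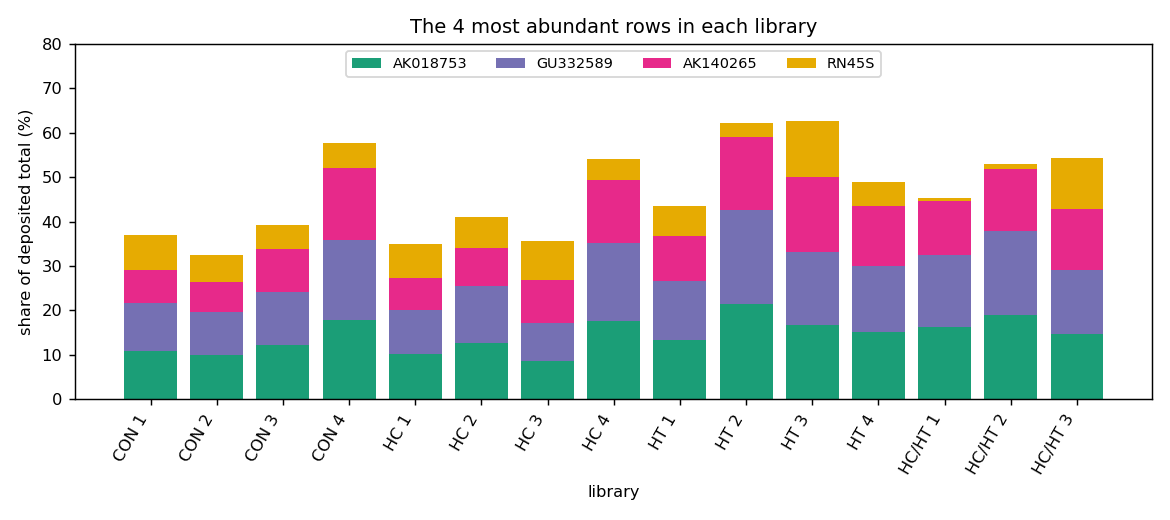
Share of the deposited total (%, vertical axis) taken by the 4 most abundant rows in each of the 15 libraries, stacked by row. The HC shares (35.0% to 54.1%) lie within the span of the CON shares (32.4% to 57.8%), with replicate 4 the highest of both groups.

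Apoe itself (chr7:19696244-19701310, mm10) checked the labels. Its level was 1606, 1499.5, 1020.3 and 942 units in CON replicates 1 to 4 and 19.0, 11.8, 9.28 and 4.69 in HC replicates 1 to 4, so every HC library lay far below every CON library. The group means differed 113-fold. An exact permutation test of the mean log2 level gave p = 0.0286, two-sided, the smallest that 4 against 4 allows. In the fit over all genes the difference was -7.02 ± 0.56 on the log2 scale (± SE, limma adjusted p = 0.00020). Apoe was above 0 in each HC library, and which part of the gene those reads cover was not analysed here.

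Of 16184 genes tested, 18 rose in HC (0.111%) and 10 fell (0.0618%) at an adjusted p under 0.05 in limma, 28 in all (0.173%). At an unadjusted p under 0.05, 531 were higher (3.28%) and 362 lower (2.24%), together 5.52%. The genes that rose include the cholesterol exporters Abca1 and Abcg1, the lysosomal genes Gpnmb, Acp5 and Ctsl, the macrophage genes Trem2 and Cd5l and the proteases Mmp12 and Adam8, along with genes of other roles such as Tnc, Galnt6 and Nfasc. The HC and CON libraries of all 28 called genes did not overlap, against 3.55% of all genes that separated upward and 3.44% that separated downward. These 28 were called on the same libraries, so their separation is no further evidence for the calls. The median difference over all genes was -0.02, with 48.1% of genes positive and 51.9% negative. The count of genes higher was 3 without CON replicate 2, 11 without CON replicate 3, 37 without HC replicate 1, 3 without HC replicate 2, 11 without HC replicate 3 and 9 without HC replicate 4, and the count lower was 6 without CON replicate 2 and 5 without HC replicate 2. CON replicate 2 is the only CON female and HC replicate 2 the only HC male. Summed markers of red cells and blood were 13608 units in CON replicate 4 and 18901 in HC replicate 1, against 314 to 2978 in the other 6 libraries, and their part in the results was not tested.

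Both sterol exporters rose. Abcg1 (chr17:31057694-31117984), the transporter that passes cholesterol to HDL, stood at 17.3, 15.2, 24.8 and 9.51 units in the CON libraries and 87.8, 131, 95.8 and 209 in HC. HC replicate 4 was the highest and the lowest HC library lay far above CON. The log2 difference was 2.78 ± 0.33 (adjusted p = 0.00020), and it passed under all 22 alternatives run. Abca1 (chr4:53030789-53159988), which loads cholesterol onto apolipoprotein A-I, stood at 139.9, 115, 146 and 114 units in the CON libraries and 240.5, 462, 496 and 661 in HC. HC replicate 1 was the lowest of its group and still above every CON library, and the difference was 1.74 ± 0.27 (adjusted p = 0.00562). It did not pass without CON replicate 2 or without HC replicate 2.

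Of the 22 efflux and LXR target genes tested, 20 had a positive difference, 2 rose and 1, Apoe, fell. The median difference was 0.70, and 0.40 without HC replicate 2, beside -0.02 over all genes. Pltp, the phospholipid transfer protein of plasma, averaged 86.5 ± 16.1 units in the CON libraries and 185 ± 63.2 in HC without passing (1.17 ± 0.27, adjusted p = 0.122). Genes of cholesterol synthesis and uptake, which SREBP2 drives when cell cholesterol is low, gave no call: 20 of 25 were positive, with a median of 0.41, which was 0.15 without the sex term and 0.63 without HC replicate 2.

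Lysosomal genes had positive differences throughout, though few passed alone. Of 36 lysosomal hydrolases and membrane proteins tested, 36 were positive, 22 had HC libraries all above CON, and 3 rose: Gpnmb, Acp5 and Ctsl. The median difference was 0.76, and 0.48 without HC replicate 2. In HC/HT against HT the median was 0.91 and 8 rose, beside a median of 0.12 and 0.272% risen over all genes there. The mean log2 level of the list lay between 6.23 and 6.70 in CON and between 7.19 and 7.67 in HC. In HC against CON, 48.1% of all genes tested were positive, 3.55% separated upward and 0.111% rose, shares to be set beside the counts of every list. All lists were chosen with earlier results of these data known.

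Gpnmb (chr6:49036518-49058182), a transmembrane glycoprotein of lysosomes and melanosomes, stood at 131, 62.1, 72.3 and 66.8 units in the CON libraries and 376, 800.2, 500.5 and 1558 in HC (3.15 ± 0.46, adjusted p = 0.00939). HC replicate 4 was the highest and HC replicate 1 the lowest, and no HC value reached down to CON. Acp5 (chr9:22126727-22135746), the tartrate-resistant acid phosphatase of osteoclasts and macrophages, was low in CON (1.40, 1.74, 3.55 and 1.39 units) and measured 15.5, 35.5, 24.2 and 50.8 units in HC (3.09 ± 0.54, adjusted p = 0.0135). Ctsl (chr13:64361890-64370772), the protease cathepsin L, was even across CON (114, 129, 115 and 98.1 units) and stood at 214, 436, 407 and 465 in HC (1.59 ± 0.29, adjusted p = 0.0188). HC replicate 1 lay between CON and the other HC libraries. Ctsd and Ctsb, cathepsins D and B, averaged 525 ± 138 against 1681 ± 362 units (adjusted p = 0.0583) and 722 ± 101 against 2086 ± 440.4 units (adjusted p = 0.12), and neither passed. In HC/HT against HT both passed (adjusted p = 0.0270 and 0.0278).

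The vacuolar proton pump acidifies these organelles. Its d2 subunit gene Atp6v0d2 (chr4:19876838-19922566), used by osteoclasts and macrophages, stood at 3.11, 6.37, 9.84 and 4.41 units in the CON libraries and 68.0, 174, 126 and 288 in HC (4.15 ± 0.66, adjusted p = 0.0187). It was the 1 called member of 18 tested, of which 17 were positive with a median of 0.39. Among the widely used subunits, Atp6v1a averaged 110.1 ± 12.5 and 193 ± 50.7 units and Atp6v1c1 41.8 ± 8.78 and 76.2 ± 9.65, without passing. Of the transcription factors that bind lysosomal gene promoters, Mitf stood at 41.2 ± 10.7 units in the CON libraries and 42.7 ± 11.4 in HC (0.06 ± 0.31, adjusted p = 0.999), and 0 of the 4 tested members of that family passed.

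Genes of lipid-laden macrophages, receptors and secreted proteins among them, held 11 of the 18 that rose. Of 25 genes listed for foam cells and TREM2-type macrophages, 24 were positive and 11 rose, with a median difference of 1.54. The lists share genes, so these 11 include genes already named under the lists above and are not a separate result. In HC/HT against HT this list had a median of 1.65 and 12 members rose, beside 0.272% of all genes. Like the others, this list was drawn up with results of these samples known, so its counts are no independent evidence of direction. Trem2 (chr17:48346401-48352276), a lipid-sensing receptor of macrophages, stood at 15.4, 6.37, 6.94 and 7.65 units in the CON libraries and 41.0, 66.6, 63.1 and 63.8 in HC (2.54 ± 0.41, adjusted p = 0.0077). HC replicates 2 to 4 lay close together and HC replicate 1 below them. Cd5l (chr3:87357881-87371074), a secreted macrophage protein and LXR target that limits apoptosis, stood at 3.11, 0, 2.26 and 3.25 units in CON, about 22 reads over the 4 libraries, and at 31.5, 65.1, 84.3 and 87.0 in HC (4.54 ± 0.54, adjusted p = 0.00020). It passed under all 22 alternatives.

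Lgals3 (chr14:47373860-47386167), galectin-3, a carbohydrate-binding protein of activated macrophages, stood at 33.0, 13.5, 11.0 and 13.9 units in the CON libraries and 119, 248.8, 177 and 166 in HC (3.25 ± 0.54, adjusted p = 0.0205). Spp1 (chr5:104435111-104441053), osteopontin, a secreted phosphoprotein of macrophages and mineralising tissue, had the widest spread of these genes. It stood at 7.77, 35.1, 2.90 and 4.87 units in the CON libraries and 216, 1246, 3258 and 907 in HC, and the fitted difference was 6.33 ± 0.97 (adjusted p = 0.0304). HC replicate 3 was the highest and HC replicate 1 the lowest, and the call was kept in 12 of 22 alternatives. Pirb (chr7:3712505-3720382), an inhibitory receptor for MHC class I, averaged 27.8 ± 9.02 units in the CON libraries and 89.1 ± 27.1 in HC (1.73 ± 0.34, adjusted p = 0.0394). Pirb is in none of the gene lists. It belongs to a family of near-identical paralogs, so its reads may be shared with them and its value is uncertain.

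Matrix enzymes and 1 matrix protein also rose. Mmp12 (chr9:7344397-7360461), macrophage elastase, was even across CON (47.1, 47.5, 43.7 and 46.6 units) and measured 265, 261, 605 and 793 units in HC (3.00 ± 0.44, adjusted p = 0.0077). Adam8 (chr7:139978932-139995207), a membrane-bound metalloprotease of myeloid cells, averaged 6.44 ± 2.99 units in the CON libraries and 39.1 ± 14.2 in HC (2.70 ± 0.46, adjusted p = 0.0108). Of 30 matrix proteases and inhibitors tested, 25 were positive and these 2 passed, with a median of 0.35. Tnc (chr4:63959785-64047015), tenascin C, a glycoprotein of remodelling matrix, stood at 6.06, 20.7, 12.7 and 8.12 units in the CON libraries and 44.9, 74.4, 77.0 and 55.0 in HC (2.23 ± 0.37, adjusted p = 0.0102).

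The remaining 4 genes that rose differ in role. Galnt6, which starts O-linked glycan chains, averaged 2.32 ± 0.790 units in the CON libraries and 19.1 ± 10.4 in HC (2.23 ± 0.45, adjusted p = 0.0435). Nfasc, the cell adhesion protein neurofascin, averaged 8.73 ± 2.82 and 48.6 ± 15.2 units (1.91 ± 0.35, adjusted p = 0.0205). 1300002K09Rik, now named Stra6l, a receptor for retinol-binding protein, was listed at 0 in 3 CON libraries, at 0.323 units in CON replicate 3 and at 6.03, 12.6, 8.21 and 21.5 units in HC (adjusted p = 0.00763), and no fold is given for it. Gpr137b, a lysosomal membrane protein, averaged 27.4 ± 7.30 and 80.5 ± 30.7 units (1.52 ± 0.30, adjusted p = 0.0422). It may share reads with the near-identical pseudogene Gpr137b-ps, so its value is uncertain.

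The calls differed in how often they were kept over the 22 alternatives. Abcg1, Cd5l, Apoe, AK039360, AK041157, AK048672 and DQ687153 kept theirs in all 22. Every other call was lost without CON replicate 2, except those of Tnc and 4930578G10Rik, and without HC replicate 2, except that of Mmp12. Acp5 and Adam8 kept theirs in 19, Atp6v0d2 and Lgals3 in 16, Nfasc in 15, Ctsl in 14, Galnt6 in 13, and Gpr137b, Pirb and Spp1 in 12. Among the rows that fell, Gm3893 kept its call in 18 and 4933409K07Rik in 14.

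**Figure D2:**
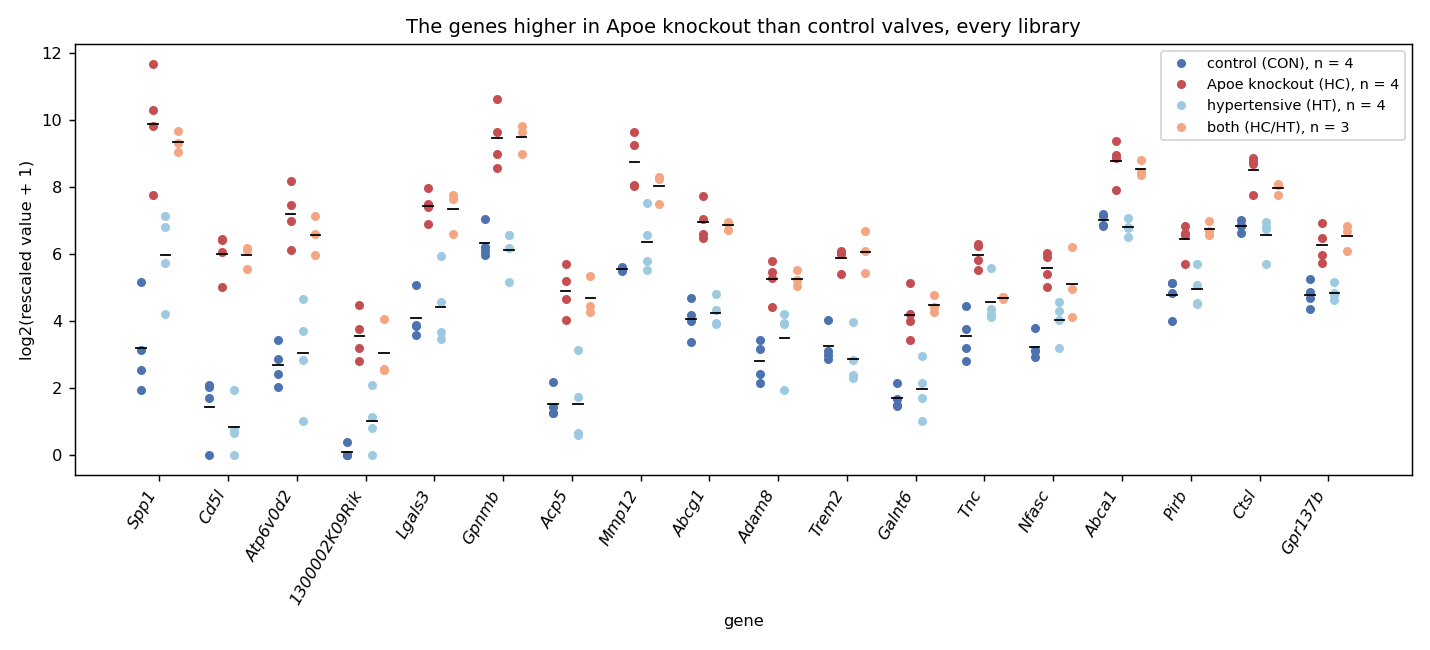
Level of the 18 genes higher in HC than in CON, as log2(rescaled value + 1), in each of 15 libraries (points) with group means (black lines). In each gene the 4 HC points lie above the 4 CON points, the libraries on which the genes were called. The HC/HT points lie above the HT points for 15 of the 18.

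For a pair of these genes, a short stretch before an annotated start is shown because it carries letters of sites known for lysosomal, lipid and protease genes. The motifs searched, on both strands, were CACGTG (E-box), CATGTG (M-box core) and TGACTCA (AP-1), none of which overlap another in the stretches shown. The window was 250 bases before to 50 after each start in RefSeq (GRCm38.p6, the build of mm10), and 15 of the 18 genes that rose had one. CACGTG was found for 2 of the 15 (Abca1 and Ctsl), against 8.09% of 27025 genes with a window. CATGTG was found for 3 (Acp5, Mmp12 and Pirb), against 15.9%, and TGACTCA for 2 (Gpnmb and Mmp12), against 5.95%. A gene counts once if any of its windows holds the letters, and the number of windows per gene was not matched in these shares. The Abca1 stretch is the part of the window outside the annotated gene, chr4:53159989-53160145 on the minus strand, with the E-box in capitals, 147 bases before a RefSeq start that lies inside the annotated gene, beyond the stretch shown. The Mmp12 stretch lies before its downstream RefSeq start, inside the gene, chr9:7347124-7347373 on the plus strand, with the M-box core (as CACATG) and the AP-1 letters (as TGAGTCA) in capitals 83 and 44 bases before that start. The window at the upstream Mmp12 start, chr9:7344147-7344446, held 0 matches. A match describes these letters and shows no binding.
Abca1: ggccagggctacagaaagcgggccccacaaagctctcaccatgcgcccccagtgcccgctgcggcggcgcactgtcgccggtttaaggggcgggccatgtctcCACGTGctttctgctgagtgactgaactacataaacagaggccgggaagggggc
Mmp12: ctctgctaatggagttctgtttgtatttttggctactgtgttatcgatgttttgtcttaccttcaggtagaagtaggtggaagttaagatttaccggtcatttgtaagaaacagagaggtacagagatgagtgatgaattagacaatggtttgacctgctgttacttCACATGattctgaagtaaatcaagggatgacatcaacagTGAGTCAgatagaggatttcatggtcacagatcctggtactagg

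Of the 10 rows that fell, Apoe is described above. Of the others, 3 have a gene symbol and 6 have none. The predicted gene Gm3893 (chr4:42089373-42092930) stood at 16.2, 9.56, 16.8 and 11.4 units in the CON libraries and 0.301, 0, 0 and 2.35 in HC (-3.14 ± 0.55, adjusted p = 0.0141). 4930578G10Rik (chr4:42670290-42871806), 7.77, 3.77, 8.71 and 7.65 units in CON, was listed at 0 in the 4 HC libraries (adjusted p = 0.00344). 4933409K07Rik averaged 262 ± 47.4 units in the CON libraries and 78.2 ± 10.7 in HC (-1.54 ± 0.28, adjusted p = 0.0205). Gm3893 and 4930578G10Rik lie in a stretch of chromosome 4 that holds near-identical copies of genes, so how reads were shared between copies is uncertain.

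Of the rows without a symbol, AK041157 stood at 115, 61.0, 103 and 84.4 units in the CON libraries and 1.81, 0.332, 0 and 3.63 in HC (-5.44 ± 0.60, adjusted p = 0.00020). AK039360 was at 31.6, 15.8, 28.4 and 20.4 units in CON, and in HC was listed at 0 in replicates 2 to 4. AK048672 averaged 17.9 ± 4.21 units in the CON libraries and 0.509 ± 0.547 in HC, and DQ687153 10.0 ± 2.05 and 0.0753 ± 0.151. The HC levels of these rows correspond to about 1 to 16 reads over 4 libraries. The calls of these 4, like that of Apoe, were kept in all 22 alternatives. The other two, AK029949 and DQ540451, named here for their stability and not by the rule, kept theirs in 10 and 20.

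The same genotype difference in hypertensive mice uses none of these 8 libraries, though the estimates of the spread and of the sex term are shared. There HC/HT was compared with HT, and 44 genes rose (0.272%) and 10 fell (0.0618%). Of the 18 genes that rose in HC, 18 were positive, 15 had HC/HT libraries all above HT (6.12% of all genes) and 11 passed. Of the 10 rows that fell, 10 were negative, 9 separated (2.56% of all genes) and 8 passed. Those that passed number 19 of 28, but 7 without HC/HT replicate 1, 11 without HC/HT replicate 2 and 12 without HT replicate 2. Cd5l differed by 5.12 ± 0.54 (adjusted p = 0.000177), Trem2 by 3.17 ± 0.41 (adjusted p = 0.00119) and Abcg1 by 2.58 ± 0.33 (adjusted p = 0.00119).

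Several genes did not pass there. Tnc overlapped, with 16.3 to 46.5 units in HT and 24.2 to 25.4 in HC/HT (0.08 ± 0.38, adjusted p = 0.959). Mmp12 overlapped between the groups, with 45.4 to 184 units in HT and 180.3 to 315 in HC/HT (1.59 ± 0.44, adjusted p = 0.161). Spp1 ranged from 17.7 to 139 units in HT and from 521 to 811 in HC/HT (3.24 ± 0.98, adjusted p = 0.246). In HT, Mmp12 averaged 94.3 and Spp1 79.9 units, above their CON means. The limma interaction, which tests whether the 2 differences are unequal, was below an unadjusted p of 0.05 for 4 of the 28 genes (Apoe, Tnc, Mmp12 and Spp1). The 28 were called on HC minus CON, which is part of this contrast, so that count cannot be set beside the share over all genes. Of 16184 genes, 400 were at an unadjusted p under 0.05 and 0 passed adjustment, so a difference between the backgrounds was not shown.

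**Figure D3:**
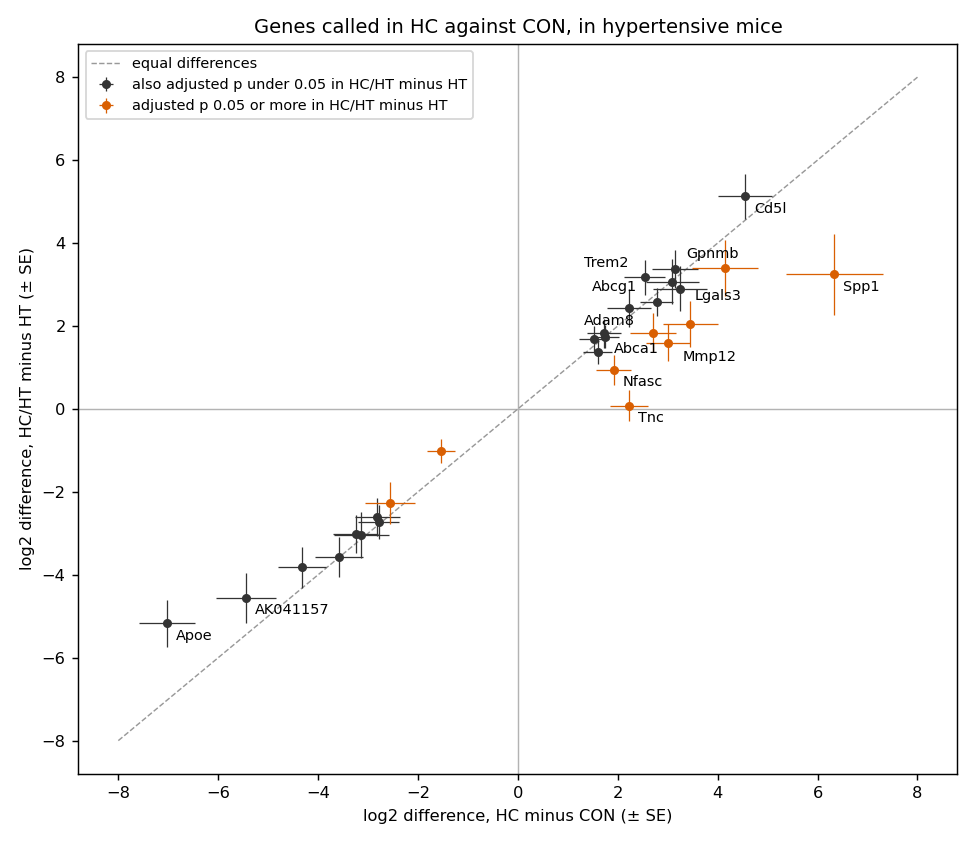
Log2 difference ± SE of the 28 called genes in HC minus CON (horizontal) and in HC/HT minus HT (vertical), with the dashed line marking equal differences. All 28 lie in the quadrants of equal sign; Tnc, at 0.08 on the vertical axis, lies nearest to 0, and black points (19) also passed in hypertensive mice.

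Macrophage markers had positive differences in the same libraries. Of 27 general macrophage and monocyte markers tested, 25 were positive and 14 separated upward, beside 3.55% of all genes. Their median was 1.01 (0.55 without CON replicate 2), yet 0 passed. Their summed level ran from 2039.8 to 3796 units in the CON libraries and from 4730.1 to 8981 in HC, and no marker was at 0 in all 8 libraries. Cd68, a lysosomal membrane protein of macrophages, stood at 71.7, 39.4, 57.6 and 68.7 units in the CON libraries and 116, 266, 205 and 256 in HC (1.74 ± 0.39, adjusted p = 0.122). In HC/HT against HT the list had a median of 1.48, and Cd68 alone of its members passed (adjusted p = 0.0181). Lyz2, the lysozyme of macrophages, averaged 1075 ± 402 and 3559.9 ± 1128 units (1.62 ± 0.51, adjusted p = 0.497). In these bulk samples, more cells of a type and more RNA per cell cannot be told apart, and the part of macrophage number in the genes above was not tested.

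Markers of tissue-resident macrophages were mostly negative. Of 12 tested, 3 were positive and 9 negative, with a median of -0.73 and no call. That median was -1.34 without HC replicate 2, -0.44 without CON replicate 4 and -0.19 without HC replicate 4. In hypertensive mice (HC/HT against HT) it was 0.02. Timd4, a receptor for phosphatidylserine, stood at 4.20, 8.98, 8.06 and 12.8 units in the CON libraries and 0.753, 2.66, 2.89 and 0.427 in HC (-2.15 ± 0.58, adjusted p = 0.274). Lyve1, a hyaluronan receptor shared with lymphatic vessels, stood at 46.8, 49.5, 71.9 and 128 units in CON replicates 1 to 4 and 31.8, 34.5, 26.5 and 5.55 in HC replicates 1 to 4 (-1.88 ± 0.65, adjusted p = 0.594). Both separated downward, as did 3.44% of all genes, without passing. Mrc1, the mannose receptor, averaged 244 ± 94.1 and 217 ± 61.2 units.

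Inflammatory groups were mostly positive without a call. Of 30 chemokine genes and receptors tested, 29 were positive, with a median of 1.32, and 11 separated upward, beside 3.55% of all genes. Ccl9, a monocyte chemoattractant, averaged 30.03 ± 12.2 units in the CON libraries and 88.7 ± 26.7 in HC (adjusted p = 0.284), and Cxcl16, a membrane-bound chemokine that also binds oxidised lipoprotein, 101 ± 12.1 and 226 ± 50.04 (adjusted p = 0.154). In HC/HT against HT the chemokine list had a median of 1.37 and 2 members rose, among them Cxcl16 (adjusted p = 0.0231). Il1rn, the antagonist of the interleukin 1 receptor, stood at 0.311, 4.06, 1.77 and 4.18 units in the CON libraries and 20.2, 27.1, 117 and 50.8 in HC (3.18 ± 0.71, adjusted p = 0.122), and the receptor gene Il1r1 averaged 220.4 ± 29.6 and 240.4 ± 62.9 units. Of 20 genes of MHC class II and antigen presentation, 19 were positive and 10 separated upward, beside the same 3.55%. Their median was 0.63 (0.32 without HC replicate 2 and 0.39 without CON replicate 2). Itgax, an integrin of dendritic cells and foam cells, averaged 18.3 ± 8.50 and 116 ± 42.9 units (2.29 ± 0.57, adjusted p = 0.256). Vcam1, the endothelial adhesion molecule for monocytes, averaged 549 ± 192 and 879 ± 247 (adjusted p = 0.861).

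Fibrosis genes, which the title of the series names as its subject, gave no call among 22 fibrillar collagen and crosslinking genes, of which 15 were positive (median 0.24, and 0.37 without CON replicate 2, 0.12 without CON replicate 4 and 0.15 without HC replicate 3). Col1a1, the main chain of type I collagen, stood at 691 ± 85.9 units in the CON libraries and 762 ± 294 in HC (0.15 ± 0.27, adjusted p = 0.999). Col3a1, of type III collagen, stood at 546, 889.5, 876 and 766 units in CON replicates 1 to 4 and 1150.2, 3628, 1992 and 915 in HC replicates 1 to 4; the groups did not overlap, but the gene did not pass (1.08 ± 0.46, adjusted p = 0.813). Fibronectin (Fn1) differed by 0.87 ± 0.35 (adjusted p = 0.739) and periostin (Postn), a matricellular protein of valve fibroblasts, by -0.46 ± 0.28 (adjusted p = 0.99). Tgfb1, the profibrotic growth factor, was at 23.3 ± 8.44 and 20.6 ± 9.49 units, and 0 of 30 TGF-beta and BMP pathway genes passed. Among 21 osteogenic genes Spp1 alone passed. Runx2, the master regulator of osteoblasts, stood at 16.9 ± 6.54 and 23.7 ± 14.1 units (0.57 ± 0.41, adjusted p = 0.999).

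Valve transcription factors and contractile genes were mostly or wholly negative, without a call. Of 21 valve transcription factors tested, 20 were negative, with a median of -0.44 (-0.50 to -0.38 with any single library omitted), and -0.16 in HC/HT against HT. Snai2, a factor of endothelial to mesenchymal change, averaged 37.2 ± 4.00 units in the CON libraries and 24.1 ± 9.08 in HC (-0.89 ± 0.32, adjusted p = 0.591), and none passed. Of 24 contractile genes of smooth muscle and myofibroblasts, 24 were negative with a median of -0.98, but 0 separated. In HC/HT against HT their median was -1.42 and 0 passed. Acta2, smooth muscle actin, stood at 1186, 387, 1478 and 49.6 units in the CON libraries and 133, 517, 131 and 108 in HC, overlapping (-1.22 ± 1.17, adjusted p = 0.999), and Myl9, a myosin light chain, averaged 256 ± 110.4 and 45.9 ± 46.5 (-2.45 ± 0.75, adjusted p = 0.508).

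Markers of heart muscle varied in the same libraries. Of 28 cardiomyocyte markers 27 were negative, with a summed level of 1292 to 7559 units in the CON libraries and 628 to 3305 in HC. Their median of -0.91 was -1.93 without CON replicate 2, -1.88 without HC replicate 2, -0.46 without CON replicate 1, -0.42 without HC replicate 3 and -0.01 with the 8 HC and CON libraries fitted alone. The part of tissue taken with the valve in the contractile genes was not tested.

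**Figure D4:**
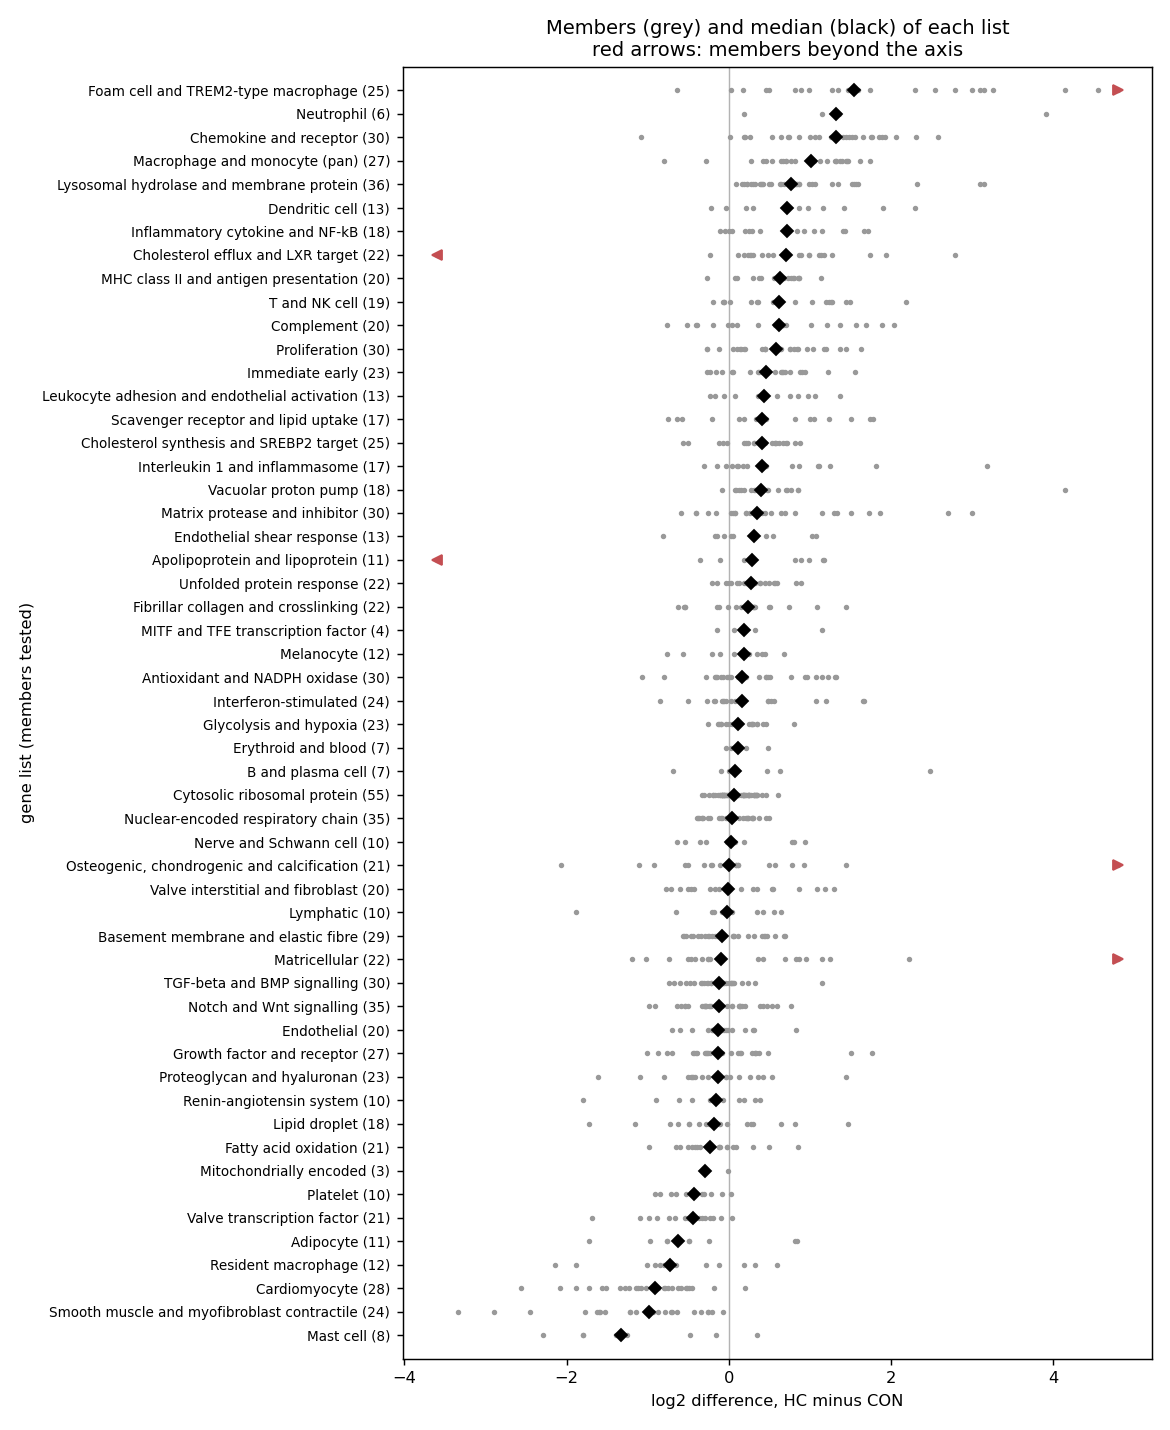
Log2 difference, HC minus CON, of the tested members (grey points) and their median (black diamonds) for each of 54 gene lists, with the number of members in brackets. The foam cell list has the highest median (1.54) and the mast cell list the lowest (-1.33); red arrows mark members beyond the axis (Spp1 and Apoe).

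**Figure D5:**
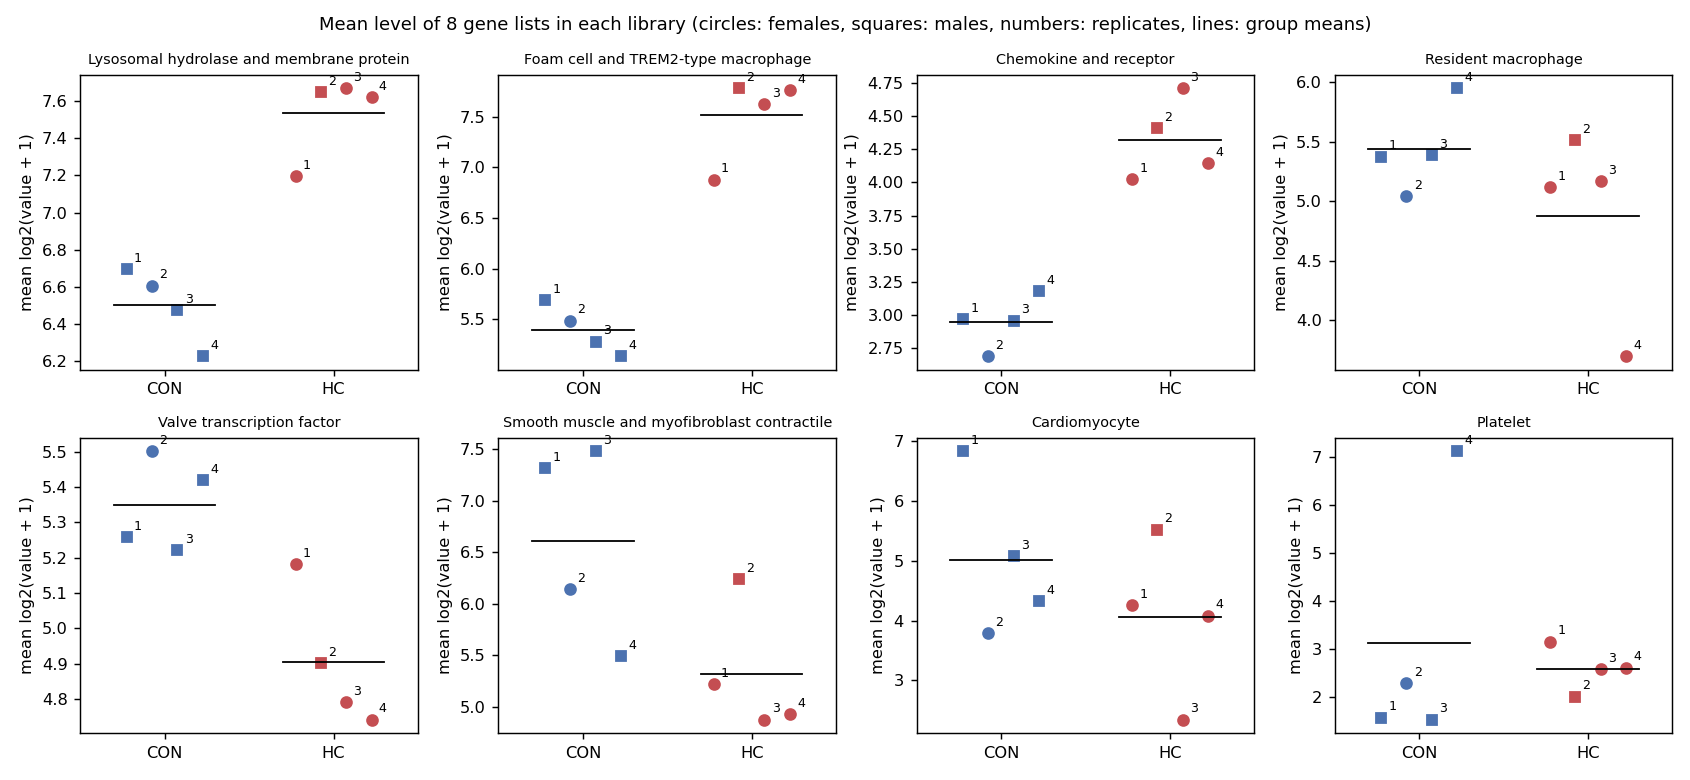
Mean log2(rescaled value + 1) of 8 gene lists in each HC and CON library, with the replicate number beside each point, circles for females, squares for males and lines at group means. HC lies wholly above CON for the lysosomal, foam cell and chemokine lists and wholly below it for valve transcription factors, while the platelet list is set apart by CON replicate 4 (7.12).

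Just short of the threshold, 9 further genes had an adjusted p from 0.05 to 0.1, all higher in HC, and are named because of these values, not by the rule for named genes. Lipa, lysosomal acid lipase, which frees cholesterol from its esters, stood at 112 ± 9.78 units in the CON libraries and 308 ± 76.1 in HC (adjusted p = 0.0537). Psap, the precursor of the saposins that assist lysosomal lipid breakdown, stood at 288 ± 85.8 and 886 ± 177 units (adjusted p = 0.0583). Plin2, a coat protein of lipid droplets, stood at 37.7 ± 7.75 and 118 ± 31.9 units (adjusted p = 0.0836). Of the 18 lipid droplet genes tested, 6 were positive and 12 negative, with a median of -0.19; at an unadjusted p under 0.05, 1 was higher and 2 lower. The others were Tnfrsf1b, Capg, Gpr137b-ps, Pld3, Ctsd and F7. Of the 9, all but Capg and F7 passed in HC/HT against HT (Lipa, Psap and Plin2 at adjusted p = 0.0181, 0.0171 and 0.0137).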

How the data were processed

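Total RNA of mouse aortic valve tissue was amplified and sequenced, per the labels' protocols. The authors deposited 1 table of 20992 rows with a normalised read count per gene, rounded and handled here as a score, since the totals are nearly equal and whole reads could not be recovered; the submitters' processing notes name Bowtie 1.0.1, SAMtools 0.1.9, FastQC 0.11.2, edgeR and mm10, without the normalisation step. Row names matched RefSeq names for 17944 rows, older symbols for 844 and none for 2204. A column with no name was not used, and 1 HC/HT sample was not analysed here (value columns left out: 1).

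Each library was rescaled so that its total without RN45S, AK018753, GU332589 and AK140265 is 1000000. The 16184 genes that reached 1 unit in 4 or more of 15 libraries were fitted as log2(value + 1) in limma 3.58.1 (R 4.3.3), with group and sex, an intensity trend and robust variances, over all 15 libraries. Fold changes are on the log2(value + 1) scale, which understates changes of low genes. Adjusted p-values are Benjamini-Hochberg over all genes tested, two-sided. Every adjusted p in the text is from this limma fit.

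The groups, the named genes (called genes, and the 2 members of each list with the smallest p and the 2 with the highest mean, the 4 called rows without a symbol that differ most, and a fixed set such as Col1a1 and Tgfb1) and the 54 gene lists were chosen with earlier results of these data known. Alternatives tried were other scalings, pseudocounts, filters, fits and each library left out.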

Additional observations from a re-analysis of the deposited data

Results flagged for a closer look

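Among 164 groups of 4 values, 14 held 1 library far from the other 3, where chance gives about 1 in 20; 3 of the 14 (1300002K09Rik, AK039360 and DQ687153) are about 1 read beside 3 values of 0, where any value above 0 stands apart. HC replicate 1 was the far library for Ctsl (214 units, the others 407 to 465), Trem2 (41.0 units, the others 63.1 to 66.6), AK039360 and DQ687153 (0.301 units each, the others listed at 0), and for the mean log2 level of the lysosomal list (7.19, the others 7.62 to 7.67) and the MHC class II list (6.01, the others 6.44 to 6.52). It lay on the CON side of the HC group for the 2 genes that rose and for both lists.

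CON replicate 4 stood above the other CON libraries in the mean log2 level of platelet genes (7.12, the others 1.53 to 2.29), neutrophil genes (4.21, the others 1.42 to 1.62), T and NK cell genes (3.17, the others 1.53 to 1.75) and leukocyte adhesion genes (6.90, the others 5.75 to 5.91). Its summed platelet marker level was 4929 units, and its summed red cell and blood markers were 13608 units; HC replicate 1 had 18901, and the other 6 libraries 314 to 2978. CON replicate 1 was lowest for renin-angiotensin genes (4.81, the others 5.18 to 5.26) and highest for apolipoprotein genes (4.89, the others 4.73 to 4.75). CON replicate 2 was lowest for 4930578G10Rik (3.77 units, the others 7.65 to 8.71), and CON replicate 3 had the single CON value above 0 for 1300002K09Rik (0.323 units).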

How the results depend on the processing

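Of the 18 genes higher and 10 lower, the count higher rose to 38 without the sex term, 81 with the HC and CON libraries fitted alone, 107 (and 29 lower) with limma array weights, and 47 without 3 libraries (replicate 2 of HC/HT, replicates 2 and 3 of HT), an alternative chosen after seeing the data because they correlate least with the rest. Leaving out each library gave 3 to 37 higher and 5 to 10 lower, and 7 to 24 of the 28 passing in hypertensive mice. With the replicate number as a replicate block, 17 were higher and 9 lower, holding 13 of the 18 and 9 of the 10. Deviations from the group means correlated between -0.06 and 0.15 in same-numbered HC and CON libraries. The same-numbered CON library was the best match for HC replicates 1 and 4, but not for 2 and 3. These few values cannot show whether the numbers pair the libraries. The other settings gave 14 to 27 higher and 8 to 10 lower. The cause was not tested. No direction reversed, and Apoe kept its call throughout. Of the list medians recomputed under the alternatives, 1138 moved by less than 1 SD and 50 by 1 SD or more. Genes of a few units rest on few reads, which limits their precision.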

Other observations

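Several other gene groups gave no call, and some medians turned with 1 library. Interferon-stimulated genes had 15 of 24 positive with a median difference of 0.15, which was -0.11 without CON replicate 2 and 0.48 without the sex term. Cytosolic ribosomal proteins had a median of 0.06 (-0.42 without HC replicate 2, 0.32 without HC replicate 4) and nuclear-encoded respiratory chain genes 0.04 (-0.45 and 0.34), with 0 called in each of these 3 lists. Complement genes had a median of 0.62, 0.25 without HC replicate 2 and 0.29 without CON replicate 2; C3, the central complement protein, stood at 177, 138, 213 and 316 units in CON and 583, 2217, 1227 and 466 in HC without passing (limma adjusted p = 0.816). Proliferation genes had 27 of 30 positive with a median of 0.58 and 0 called. Mast cell genes had the lowest median of the 54 lists (-1.33, and -0.66 without CON replicate 4), with 0 called. The platelet list had a median of -0.43, which was 0.58 without CON replicate 4 and 0.24 without HC replicate 2.

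Called genes were placed on the genome with RefSeq (GRCm38.p6). Between 40 and 70 megabases on chromosome 4, 179 genes were tested, of which 3 rose (1300002K09Rik, Abca1 and Tnc) and 2 fell (Gm3893 and 4930578G10Rik). Over all genes tested, 0.111% rose and 0.0618% fell. No rule set this window before the calls were known, so its counts are no evidence of clustering. Chromosome 4 held 4 of the 18 genes that rose, 3 of the 4 rows that fell and have a position (the third is 4933409K07Rik), and 6.18% of the 14744 tested genes with a position. 4933409K07Rik is listed at bases 120552 to 144386, and whether that position lies on the assembled chromosome was not checked. Within 5 megabases of Apoe, 94 other genes were tested and 0 were called in limma, with 11 (11.7%) at an unadjusted p under 0.05, beside 5.52% of all genes, and a smallest adjusted p of 0.161.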
